A study of Mus musculus with 6 samples.

Results

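The desmosome genes described here are the 10 genes Dsp, Dsg2, Dsc2, Dsc3, Pkp1, Pkp2, Pkp3, Pkp4, Jup and Perp, taken by symbol from a table of 24129 genes. They were measured by RNA sequencing of poly(A) RNA in 2 tumor cell populations of the mouse mammary carcinoma line 4T1, a model of triple negative breast cancer. T1 cells, which carry the label 4T1A, have low GFP, adhere, look epithelial and are described as fast growing and aggressive in mice. T2 cells, labelled 4T1NA, have high GFP, are round and loosely attached, grow slowly and are less aggressive. Both populations descend from GFP-tagged 4T1 cells grown as a mammary fat pad tumor in young adult BALB/c mice and sorted from a fibroblast culture that tumor cells had overgrown. Both were kept in DMEM/F-12 with serum, but T2 cells were passaged without trypsin, so the population and the way its cells were detached cannot be told apart. Each population was represented by 3 libraries. The study's methods say of its experiments in general that biological replicates were used, but neither they nor the labels say how these libraries of 1 isolated population were kept separate, so p-values measure only the spread between them. The parental 4T1GFP line was not analysed here.

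Desmosomes are spot-like junctions that tie the intermediate filaments of neighbouring epithelial cells together and give tissues such as epidermis, heart and mammary epithelium their mechanical strength. The desmosomal cadherins, named desmogleins and desmocollins, meet between the cells. Inside the cell their tails bind plakoglobin, encoded by Jup, and the plakophilins, and these in turn bind desmoplakin, encoded by Dsp, which anchors the keratin filaments. Perp is a membrane protein of desmosomes that was first known as a p53 target.

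Most desmosome genes with reads had higher levels in T1 cells, by amounts that ran from 1.53-fold to the near absence of reads in T2 cells. Dsp and Dsg2 held at least 2625 normalized counts in each T1 library and at most 4 reads in any T2 library. Pkp1 and Pkp2 were 13.7-fold and 5.51-fold higher in T1 cells, while Perp, Jup and Pkp3 were higher by 2.56-fold, 1.77-fold and 1.53-fold. Pkp4 differed by 1.14-fold and did not pass the test. Dsc2 and Dsc3 had no read in any of the 6 libraries. A normalized count here is the number of reads on a gene divided by 1 scaling factor for its library, and 1 read was worth 0.928 to 1.06 normalized counts.

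Of the 8 desmosome genes with reads, all of which passed the filter of a mean of 10 normalized counts, 7 passed an adjusted p under 0.01 with the higher level in T1 cells (limma on log2 of the normalized count plus 1, Benjamini-Hochberg over 11514 genes), against 25.1% of all genes compared. None was lower in T1 cells, against 24.4% of all genes, and since all 8 fold changes were positive in limma, edgeR and DESeq2 none was lower at an unadjusted p under 0.05 either. With the second filter of the study's methods, an absolute log2 fold change over 2, Dsg2, Dsp, Pkp1 and Pkp2 remained on the T1 side, 4 of 8 against 4.17% of all genes, and none on the T2 side against 4.2%. In 8 of 8 genes every T1 library lay above every T2 library, which was so for 34.2% of all genes, and the opposite order held for 33.9%. The median log2 fold change of the 8 genes was 1.92, against -0.0055 over all genes. The 10 genes took 1119, 1070 and 1244 RPM (reads scaled to a library total of 1000000) in the T1 libraries and 439, 411 and 418 in the T2 libraries. In bulk RNA, fewer cells that express a gene and less RNA in each cell cannot be told apart.

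**Figure D1:**
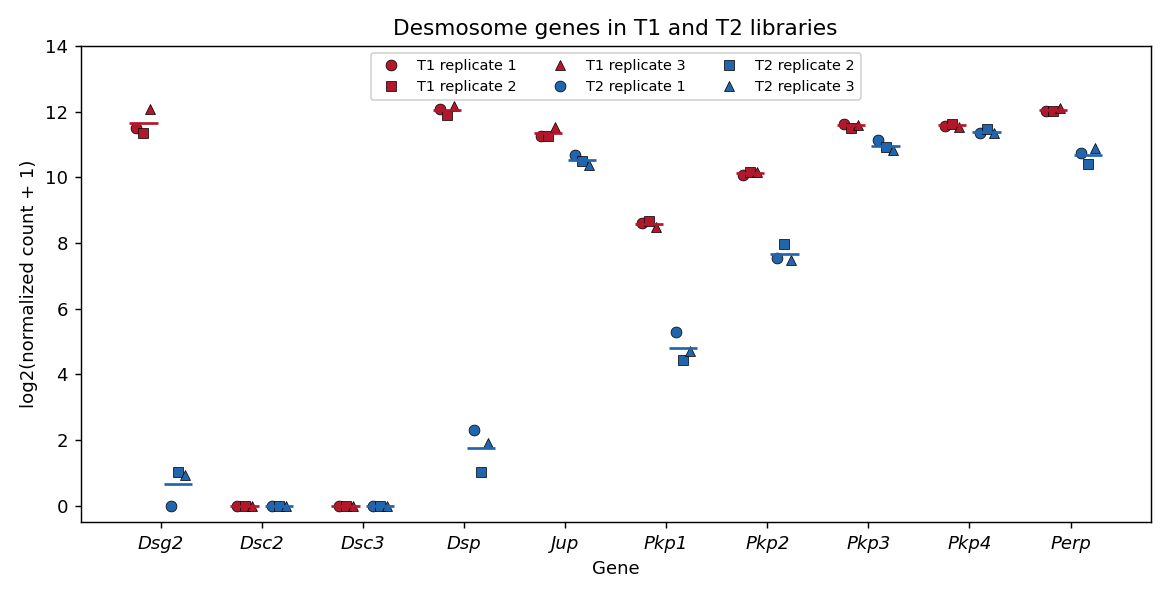
Normalized counts of the 10 desmosome genes on a log2 scale after adding 1, with 1 symbol per library (T1 red, T2 blue, symbol shape by replicate number) and a bar at the mean of the log2 values. Dsg2 and Dsp fall from above 11 in T1 cells to below 3 in T2 cells, Pkp3 and Pkp4 stay within 1 log2 unit, and Dsc2 and Dsc3 lie at 0.

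Libraries held 18133227 to 20839686 reads on genes. At these depths 3 reads, the floor set here for a count of 0, equal 0.144 to 0.165 RPM, for counting error only. The 4 markers of carcinoma epithelium had reads in every library but did not behave alike. Krt8 and Krt18, the keratins of simple epithelia, did not pass the test between the populations (log2 fold changes 0.20 and 0.10). Epcam, the epithelial cell adhesion molecule, was 90.5-fold higher in T1 cells, with 3141 ± 314 against 34.7 ± 3.49 normalized counts (SD, n = 3 each, adjusted p 4.0e-10 by limma), and Cdh1, E-cadherin, was 31.7-fold higher. The sum of the 4 was 60167 to 66104 in T1 and 37472 to 43407 in T2 libraries, most of it from the keratins. Markers of leukocytes, fibroblasts and endothelium were low beside this sum. The 4 leukocyte genes summed to 0 to 6.51 normalized counts in T1 and 7.17 to 14.8 in T2 libraries, with Tyrobp at 0. The sum of 6 fibroblast genes was 20.1 to 40.0 and 0 to 0.979, with Col3a1, Pdgfrb and Lum at 0. Col1a1 made up most of it, with 14.8, 27.9 and 24.4 normalized counts in T1 and 0.979, 0 and 0 in T2 libraries. It was higher in T1 cells past both filters (log2 fold change 4.17, adjusted p 4.9e-05 by limma). The sum of 4 endothelial genes was 0 to 5.29 and 0 to 4.64, with Kdr at 0. Krt1 and Lor of differentiated keratinocytes had no read, so Krt10 alone made up the sum of 109 to 148 in T1 and 125 to 175 in T2 libraries. T1 replicate 3 stood apart from replicates 1 and 2 of its group (chi-square per degree of freedom 23.3 and 25.0, against 7.96 between those), and T2 replicate 2 from the other T2 libraries (15.3 or more, against 10.7). T1 replicate 3 was the highest T1 library in 5 of the 8 desmosome genes and in 41.4% of all genes.

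For 3 of the desmosome genes, Dsp, Jup and Pkp4, the start region was found in the RefSeq promoter table of GRCm38.p6, and these are shown. Dsp had almost no reads in T2 cells, Jup was higher in T1 cells and Pkp4 was not called. Each window holds the 250 bases before the start, 5′ to 3′ along the gene, and capitals mark the 6 letters GGGCGG or their complement CCGCCC, the core of the GC box. The windows lie at chr13:38151044-38151293 on the plus strand for Dsp, at chr11:100397791-100398040 on the minus strand for Jup and at chr2:59160600-59160849 on the plus strand for the first of 2 Pkp4 starts.
Dsp: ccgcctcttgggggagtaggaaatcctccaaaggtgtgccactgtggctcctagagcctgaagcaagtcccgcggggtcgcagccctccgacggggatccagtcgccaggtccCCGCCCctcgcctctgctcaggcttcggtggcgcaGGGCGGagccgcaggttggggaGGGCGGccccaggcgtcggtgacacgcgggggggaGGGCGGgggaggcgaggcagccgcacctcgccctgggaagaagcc
Jup: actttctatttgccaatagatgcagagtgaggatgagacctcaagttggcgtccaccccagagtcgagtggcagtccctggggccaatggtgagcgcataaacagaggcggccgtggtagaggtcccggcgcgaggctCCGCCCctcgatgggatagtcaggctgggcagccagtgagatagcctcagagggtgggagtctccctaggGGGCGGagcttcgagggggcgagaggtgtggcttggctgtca
Pkp4: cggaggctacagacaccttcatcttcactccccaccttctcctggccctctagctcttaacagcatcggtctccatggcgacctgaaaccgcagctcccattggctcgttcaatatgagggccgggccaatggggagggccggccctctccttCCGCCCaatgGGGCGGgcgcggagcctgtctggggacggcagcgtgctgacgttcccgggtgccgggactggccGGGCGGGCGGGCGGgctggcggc
The Dsp window held 4 GC boxes, the Jup window 2 and the Pkp4 window 5, some of which overlap, and 32.7% of all 32817 windows of this length held at least 1. The GC content was 72.4% for Dsp, 62.0% for Jup and 68.4% for Pkp4, against a median of 52.4%. On both strands, none of the 3 windows had the letters TATAAA (12.4% of all windows), AACCGGTT, a Grainyhead-like factor site (0.116%), or CACCTG, the E-box bound by Snail and Zeb factors (17.2%). The second Pkp4 start had 1 CACCTG. Such matches describe letters only, and neither a match nor its absence says whether a factor was bound.

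The desmosomal cadherins are the adhesive part of the junction. Dsg2, desmoglein 2, is the desmoglein of simple epithelia. It lies on chromosome 18 from 20558074 to 20604521 on the plus strand of mm10. Its normalized counts were 2882, 2625 and 4331 in T1 replicates 1 to 3, and 0, 1.02 and 0.928 in the T2 replicates, which is 0, 1 and 1 read. T1 replicate 3 was the highest, and no T1 library came near any T2 library. The mean was 3280 ± 920 (SD, n = 3) in T1 and 0.651 ± 0.565 (SD, n = 3) in T2 cells, a ratio of 5041 with a 95% counting interval of 1396 to 41626, or of 1119 when each T2 library was set to 3 reads. The log2 fold change was 10.99 (SE 0.31, adjusted p 2.4e-09 by limma with Benjamini-Hochberg adjustment). The antisense gene Gm16090 overlaps Dsg2, and the library kit does not mark strand, so reads of the pair cannot be told apart.

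Dsc2 (chromosome 18, 20030633 to 20059554, minus strand) and Dsc3 (19960930 to 20002351, minus strand) encode desmocollins, the partners of desmogleins in adhesion. Both had 0 reads in each of the 6 libraries. The remaining desmocollin gene, Dsc1, also had no read. In T1 cells the desmosomal cadherin reads thus lay almost wholly on Dsg2.

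The desmosomal cadherin genes form a cluster on chromosome 18, and the reads changed along it in steps. From Aqp4 to Dsg1b, 15389496 to 20410196, no read fell on any of 9 neighbouring protein-coding genes in either population, a run of 5.02 Mb that includes Dsc3, Dsc2, Dsc1, the near-identical copies Dsg1c, Dsg1a and Dsg1b, whose reads a counter could drop as ambiguous, and Cdh2, the N-cadherin gene. The next genes, Dsg4 of hair and Dsg3 of stratified epithelium, had reads in T1 libraries and none in T2. Dsg4 had 6, 2 and 6 reads and stayed under the filter. Its T1 mean was 1.60 times the level of 3 reads per T2 library, but T1 replicate 2 alone lay below that level. Dsg3 had 24, 8 and 86 reads, with T1 replicate 3 the highest by a wide margin. Its T1 mean of 38.9 ± 40.0 normalized counts (SD, n = 3) was 13.3 times the level of 3 reads per T2 library. The SD was as large as this mean, so 13.3 is not a lower limit (log2 fold change 4.74, SE 0.75, adjusted p 0.000296 by limma). Without that library Dsg3 fell under the filter, and without T1 replicate 2 its log2 fold change was 5.57.

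Beyond Dsg2 the pattern turned. Ttr, the transthyretin gene, had no read. B4galt6, a galactosyltransferase gene, had 196, 190 and 184 reads in T2 libraries and none in T1 libraries, at least 62.7-fold lower in T1 cells (log2 fold change -7.54, adjusted p 3.0e-08 by limma). Trappc8, a gene of a vesicle tethering complex, was read in both populations at log2 fold change 0.21 (adjusted p 0.0958). On the far side of the run, Kctd1 had 94, 94 and 114 reads in T1 and 58, 77 and 56 in T2 libraries. Ttr thus separated genes read almost wholly in T1 libraries from a gene read in T2 libraries alone.

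**Figure D2:**
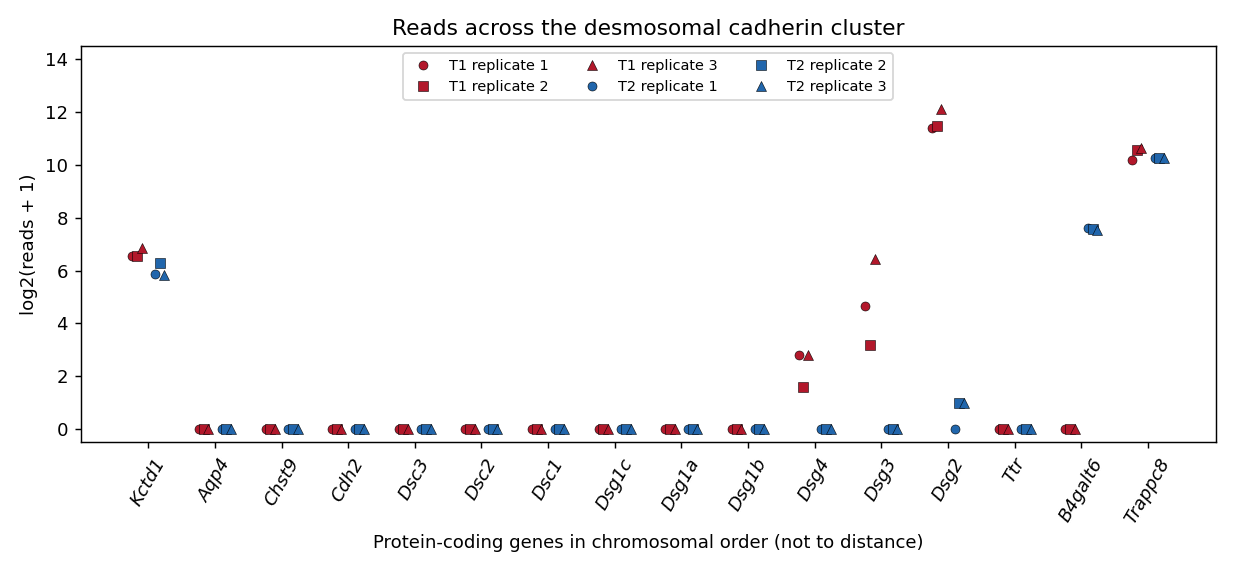
Reads on 16 protein-coding genes in chromosomal order around the desmosomal cadherin cluster, as log2 of the read number plus 1, with 1 symbol per library (T1 red, T2 blue) and no scale for distance. Symbols lie at 0 for the 9 genes from Aqp4 to Dsg1b, Dsg4, Dsg3 and Dsg2 rise in T1 libraries, and B4galt6 is read in T2 libraries alone.

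Dsp encodes desmoplakin, the plaque protein that carries the pull of the keratin filaments. It lies on chromosome 13 from 38151294 to 38198577 on the plus strand, where the tentative transcript Gm10129 overlaps it on the other strand. Its normalized counts were 4336, 3852 and 4648 in T1 libraries and 3.92, 1.02 and 2.78 in T2 libraries, the latter 4, 1 and 3 reads. The T1 libraries lay close to each other and far above the T2 libraries. Mean counts of 4279 ± 401 and 2.57 ± 1.46 (SD, n = 3 each) gave a ratio of 1662, with a counting interval of 843 to 3849. The log2 fold change was 10.31 (SE 0.29, 95% interval 9.68 to 10.95, adjusted p 2.4e-09 by limma). The genes on either side of Dsp did not follow it: Riok1, a kinase gene of ribosome maturation, stood at log2 fold change 0.019 (adjusted p 0.878) and Snrnp48, of the minor spliceosome, at 0.18 (adjusted p 0.247).

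The 5 genes whose profile over the 6 libraries lay nearest to that of Dsp, by Euclidean distance between centred log2 values, were Krt17 at 0.98, Moxd1 at 1.08, Fgfbp1 at 1.68, Ntn1 at 1.77 and Esrp1 at 1.83. Krt17 is a basal and stress keratin, Fgfbp1 an FGF carrier, Ntn1 netrin 1, and Esrp1 an epithelial splicing regulator. Each had at most 1 read in any T2 library. Krt17 ranged from 925 to 1652 normalized counts in T1 cells and Fgfbp1 from 5229 to 5932.

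Plakoglobin, encoded by Jup, is the armadillo protein that joins the cadherin tails to desmoplakin and that adherens junctions also use. Jup lies on chromosome 11 from 100368958 to 100397763 on the minus strand. Its normalized counts were 2448, 2453 and 2980 in T1 libraries and 1653, 1459 and 1332 in T2 libraries. The populations did not overlap, and T1 replicate 3 stood above the other T1 libraries. Means were 2627 ± 305 and 1481 ± 162 (SD, n = 3 each), and the log2 fold change was 0.83 (SE 0.11, adjusted p 8.0e-05 by limma). T2 cells therefore kept Jup reads in number while their Dsp reads were at the edge of detection. Per kb of exon, Dsp stood at 1.18, 1.05 and 1.04 times Jup in the T1 libraries and at 0.00158, 0.000468 and 0.00139 times in the T2 libraries.

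The plakophilins are armadillo proteins that cluster the cadherins and recruit desmoplakin. Pkp1, the plakophilin of stratified epithelium, lies on chromosome 1 from 135871395 to 135919207 on the minus strand, where the tentative transcript Gm36938 overlaps it on the same strand. It had 386, 407 and 357 normalized counts in T1 libraries and 38.2, 20.5 and 25.1 in T2 libraries. Its means were 384 ± 25.2 and 27.9 ± 9.19 (SD, n = 3 each), and the log2 fold change was 3.78 (SE 0.23, adjusted p 3.5e-07 by limma). Pkp1 was the least abundant plakophilin in both populations, and T2 replicate 1 held the highest T2 value.

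Pkp2, on chromosome 16 from 16213318 to 16272712 on the plus strand, is the plakophilin of heart and simple epithelia. It had 1075, 1148 and 1154 normalized counts in T1 and 186, 248 and 179 in T2 libraries. The T1 libraries lay close together, and all were far above the highest T2 library. From means of 1125 ± 43.8 and 204 ± 37.8 (SD, n = 3 each) the log2 fold change was 2.47 (SE 0.14, adjusted p 1.9e-07 by limma).

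Pkp3 is found in nearly all desmosome-bearing epithelia. It lies on chromosome 7 from 141078218 to 141090510 on the plus strand. Normalized counts were 3157, 2919 and 3120 in T1 and 2250, 1941 and 1804 in T2 libraries, with no overlap. Means of 3066 ± 128 and 1998 ± 229 (SD, n = 3 each) gave a log2 fold change of 0.62 (SE 0.092, adjusted p 0.000199 by limma), against 2.47 for Pkp2.

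Pkp4, also called p0071, is found at adherens junctions as well as desmosomes. It spans chromosome 2 from 59160850 to 59355208 on the plus strand. Its normalized counts were 3040, 3168 and 2967 in T1 libraries and 2584, 2868 and 2629 in T2 libraries. Although the 2 ranges did not overlap, the gap was small beside the spread within them. With means of 3058 ± 102 and 2694 ± 153 (SD, n = 3 each) the log2 fold change was 0.18 (SE 0.075, 95% interval 0.018 to 0.35), with an unadjusted p of 0.0332 and an adjusted p of 0.0528 in the limma fit.

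**Figure D3:**
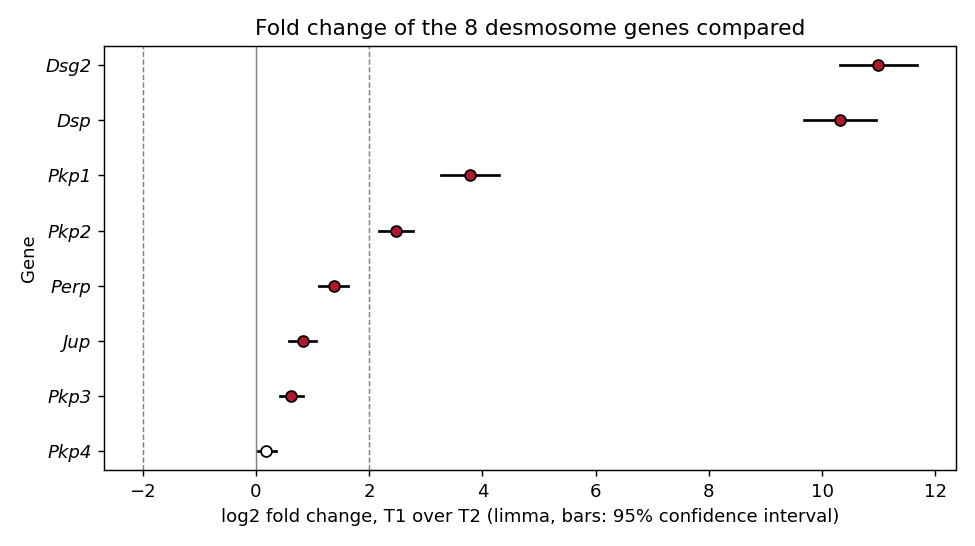
Log2 fold change, T1 over T2, of the 8 desmosome genes with reads, from limma on log2 of the normalized count plus 1, with bars for the 95% confidence interval. Filled points passed an adjusted p under 0.01, the open point for Pkp4 did not, and dashed lines mark an absolute log2 fold change of 2, which Dsg2, Dsp, Pkp1 and Pkp2 exceed.

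As these differences were unequal, the make-up of the plakophilin transcripts was compared as well, taking each gene's share of the summed normalized counts per kb of exon within a library, a measure that no scaling between libraries can change. Pkp1 made up 4.57% ± 0.316 of plakophilin transcripts in T1 and 0.518% ± 0.154 in T2 cells (SD, n = 3 each), 4.05 percentage points more in T1. Pkp2 made up 12.6% ± 0.572 and 3.57% ± 0.598, 9.01 points more in T1. The share of Pkp4 was 32.1% ± 1.23 in T1 and 44.3% ± 3.24 in T2 cells, a difference of -12.2 points. The libraries of the populations did not overlap for these 3 genes, and the exact two-sided permutation test gave 0.1 for each, the smallest p that 3 against 3 libraries allow. Pkp3 took 50.8% ± 1.78 in T1 and 51.7% ± 3.52 in T2 cells, with overlapping libraries (exact permutation p 0.8, difference -0.891 points). Leaving out 1 library moved that difference between -2.08 points without T2 replicate 2 and 1.13 without T2 replicate 1, and it was 0.136 without T1 replicate 2. The 4 shares sum to 100%, so they do not move independently. In all 6 libraries Pkp3 took the largest share and Pkp4 the second largest.

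**Figure D4:**
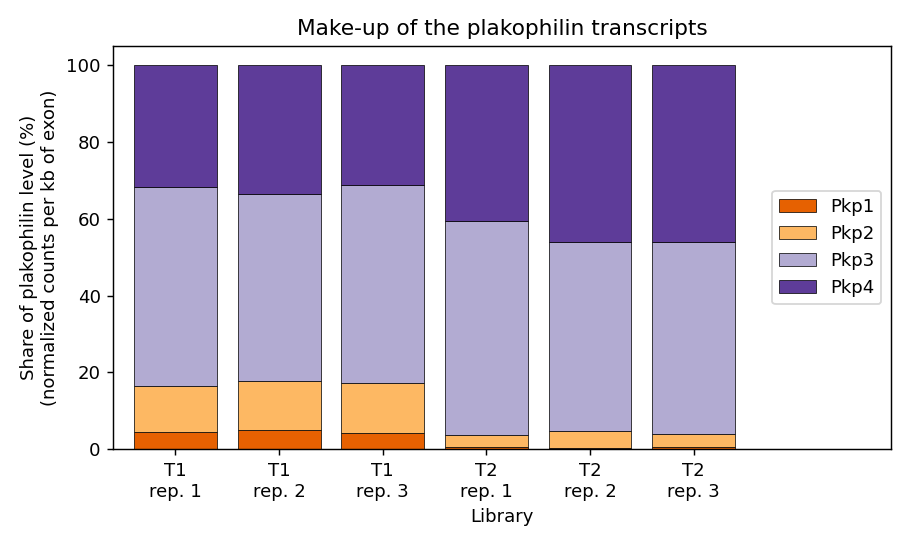
Share of each plakophilin gene in the summed plakophilin level of a library (percent of normalized counts per kb of exon), 1 stacked bar per library. The Pkp1 and Pkp2 segments shrink from 4.57% and 12.6% on average in T1 to 0.518% and 3.57% in T2 libraries, and Pkp4 grows from 32.1% to 44.3%.

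Perp, a tetraspan membrane protein needed for desmosome assembly in stratified epithelium, lies on chromosome 10 from 18845020 to 18857073 on the plus strand. Its normalized counts were 4147, 4158 and 4409 in T1 libraries and 1714, 1348 and 1901 in T2 libraries. The T1 libraries agreed more closely than the T2 libraries, and the ranges were well apart. The means were 4238 ± 148 and 1654 ± 281 (SD, n = 3 each), giving a log2 fold change of 1.37 (SE 0.12, adjusted p 3.7e-06 by limma). Trp53, the gene of the p53 factor that Perp is known to respond to, did not pass the test (log2 fold change -0.19, adjusted p 0.226 by limma). This is the RNA of Trp53 only, and whether p53 activity differed was not tested.

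Divided by exon length, the levels of the genes can be set beside each other. In T1 cells Perp was the highest at 2171 ± 75.8 normalized counts per kb of exon (SD, n = 3), followed by Pkp3 at 848 ± 35.4 and Pkp4 at 536 ± 17.8. Dsp at 443 ± 41.5, Jup at 408 ± 47.4 and Dsg2 at 397 ± 111 came next, with overlapping libraries, so their order is not resolved. Pkp2 at 210 ± 8.16 and Pkp1 at 76.4 ± 5.01 were the lowest of those with reads. The T2 order began likewise with Perp at 848 ± 144, then Pkp3 at 553 ± 63.2 and Pkp4 at 472 ± 26.7, whose libraries overlapped, and Jup at 230 ± 25.1. Below them lay Pkp2 at 38.1 ± 7.05 and Pkp1 at 5.55 ± 1.83, and at the end Dsp at 0.267 ± 0.151 and Dsg2 at 0.0787 ± 0.0684, which overlapped. Dsp and Dsg2, in the middle of the order in T1 cells, were thus last among the genes with reads in T2 cells. The Dsg2 level was 0.777, 0.796 and 1.09 times that of Dsp in the T1 libraries.

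The genes that flank the desmosome genes were not uniformly higher in T1 cells. Of the 18 nearest protein-coding neighbours that are not desmosome genes of the list, 5 had no read and 2 were under the filter. Of the 11 compared, 5 were higher in T1 cells, 2 were lower and 4 did not pass the test. Over all genes compared, 25.1% were higher and 24.4% lower. The higher ones were Dsg3, P3h4 beside Jup (47.5 ± 9.24 normalized counts against 0, at least 16.2-fold), Tnnt2 beside Pkp1 (log2 fold change 1.40), Tnfaip3 beside Perp (1.04) and Yars2 beside Pkp2 (0.83). Spidr on the other side of Pkp2 (-0.60) and B4galnt4 beside Pkp3 (-0.61) were lower.

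Related gene lists were set beside the desmosome genes, each described by its counts and median with no set test. The counts below are to be read against all genes compared, of which 25.1% were higher and 24.4% lower in T1 cells. Past both filters these shares were 4.17% and 4.2%. Of 6 further desmosomal cadherin genes, Dsg3 was higher, Dsg4 was under the filter and Dsg1a, Dsg1b, Dsg1c and Dsc1 had no read. The list's median was that of Dsg3, 4.74, or 3.73 when each T2 library was set to 3 reads. Of 6 proteins of the plaque or of the cornified envelope that it anchors, 1 was higher, 1 was lower, 3 did not pass and Ivl, involucrin, had no read (median 0.30). The higher one was Tgm1, the envelope's transglutaminase, with 28.8 ± 5.90 normalized counts in T1 and no read in T2 cells (SD, n = 3), at least 9.83-fold higher. The lower one was Ppl, periplakin, at -0.50 (adjusted p 0.00341 by limma), a call that was lost without the variance trend and when T1 replicate 2, T2 replicate 1 or T2 replicate 3 was left out. Evpl, envoplakin, stood at -0.59, Pnn, pinin, at 0.30 and Cdsn, corneodesmosin, at 0.66, without passing the test.

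The 16 genes with a known part in desmosome assembly, transport, calcium supply or shedding differed by at most 1.38 on the log2 scale, with 3 higher, 5 lower and 8 not called (median -0.12). The highest were Egfr, whose signalling loosens desmosomes, at 1.38, and Kif5b, a kinesin heavy chain, at 0.51. The lowest were Flot1, a flotillin of membrane rafts, at -0.98, and Kif3a, a kinesin motor subunit, at -0.91. None of the 16 passed an absolute log2 fold change of 2 with the test.

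The filament genes, to which desmoplakin ties the junction, split more widely. Of 12, 3 had no read and 2 were under the filter, and of the 7 compared 4 were higher in T1 cells, 1 was lower and 2 did not pass (median 7.33). Krt14, a keratin of basal cells, held 3707, 3833 and 3845 normalized counts in T1 and 1.96, 7.17 and 0 in T2 libraries. Krt19, of simple and glandular epithelium, held 2682, 3095 and 3753 against 0, 4.10 and 4.64. Their log2 fold changes were 10.36 and 10.01, close in size to those of Dsp and Dsg2, with adjusted p-values of 1.9e-07 and 1.6e-07 by limma. Vim, the vimentin gene, was lower in T1 cells at -2.15, with 33309 ± 2350 normalized counts in T1 and 148391 ± 16074 in T2 cells (SD, n = 3 each). This is RNA only. The study's qRT-PCR also gave a difference in vimentin RNA, but in its western blots vimentin protein did not differ significantly between the populations. The same blots showed high E-cadherin protein in T1 cells. Krt18 was the second lowest at 0.10 and did not pass.

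In the adherens junction, the actin-linked neighbour of the desmosome, 4 of the 9 genes compared were higher, 4 were lower and 1 did not pass (median 0.15), and 2 of the 11 listed were under the filter. Cdh1, E-cadherin, was 31.7-fold higher in T1 cells with 14748 ± 908 against 465 ± 16.2 normalized counts (SD, n = 3 each), so that, unlike Dsg2, it kept reads well above the filter in T2 cells. Nectin2 was also higher, at 0.94. Nectin3 at -1.52 and Nectin1 at -0.99 were lower in T1 cells. Among the 9 hemidesmosome genes, which fix epithelial cells to the basement membrane, 3 were higher, 5 were lower and 1 did not pass (median -0.75). Lama3, a laminin chain gene, was higher at 6.01, and Col17a1, the collagen XVII gene, at -4.05 and Itga6, the integrin alpha 6 gene, at -1.58 were lower. No test of a difference between these lists and the desmosome genes was made.

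Among 16 transcription factors known to raise or lower desmosome genes, 1 had no read and 3 were under the filter. Of the 12 compared, 6 were higher in T1 cells, 3 were lower and 3 did not pass (median 0.15), and with the replicate number as a block 5 instead of 3 were lower. Ovol1, an epithelial zinc finger factor, rose from 7.20 ± 1.78 normalized counts in T2 to 182 ± 19.1 in T1 cells (SD, n = 3 each), with 4.50 as its log2 fold change (adjusted p 2.1e-07 by limma). Grhl1, a Grainyhead-like factor known to bind desmosomal cadherin promoters, was higher at 3.28 (adjusted p 3.2e-05). Twist1 at -1.44 and Zeb2 at -1.41, both inducers of epithelial-mesenchymal transition, were lower in T1 cells. Other such factors did not share that direction throughout. Zeb1, under the filter, had 10.6, 13.0 and 9.76 normalized counts in T1 and 1.96, 1.02 and 2.78 in T2 libraries, with the T1 libraries all the higher. Snai1 stood at -1.04 without passing (adjusted p 0.0182 by limma), and Snai2 had no read in any library.

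**Figure D5:**
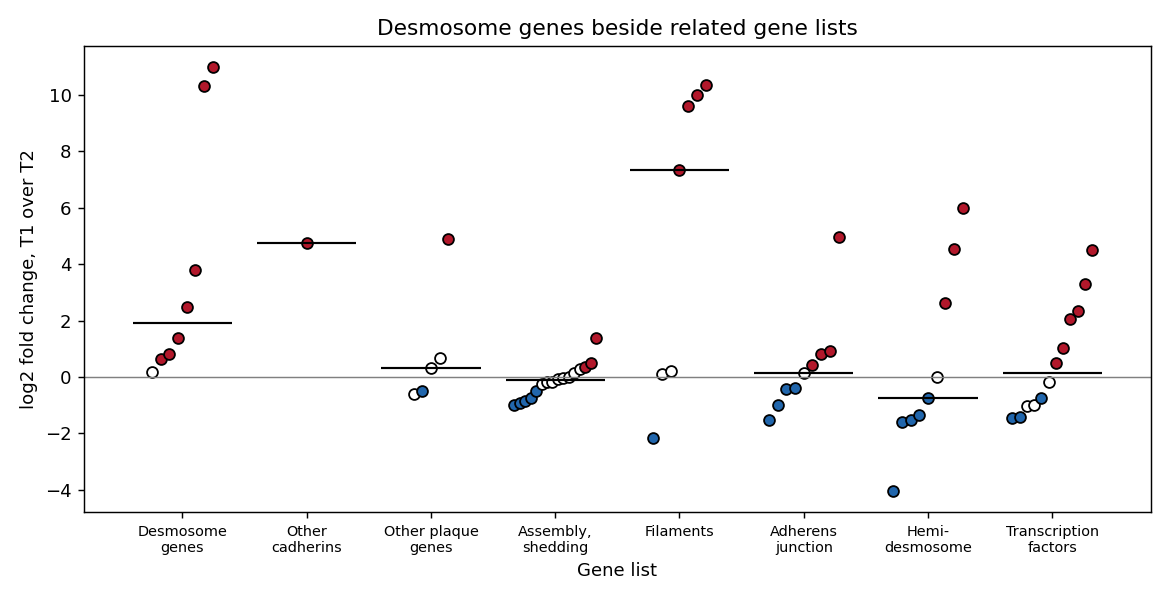
Log2 fold change, T1 over T2, of the genes compared in the desmosome list and in 7 related lists, 1 point per gene, with a line at each list's median. Red points were higher and blue points lower in T1 cells at an adjusted p under 0.01, and open points did not pass. The desmosome list has no blue point and a median of 1.92.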

How the data were processed

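Total RNA of 3 T1 and 3 T2 libraries was poly(A) selected and sequenced on libraries made with a kit that does not mark strand. The authors trimmed the reads, aligned them with TopHat2 (genome build mm10), took gene counts from HTSeq and scaled these in DESeq2; tool versions, annotation and treatment of ambiguous reads are not given in the sources used here. The deposited values are a signal, read counts divided by 1 size factor per library. Reads were recovered from them, and 100% of values were whole within 0.05 of a read.

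Of 15710 genes with a read, the 11514 whose mean reached 10 normalized counts were fitted on log2(value + 1) with limma 3.58.1 in R 4.3.3, with a variance trend and Benjamini-Hochberg adjustment. Fold changes on this scale understate those of low genes. A call required an adjusted p under 0.01, and the second filter an absolute log2 fold change over 2. As alternatives, other pseudocounts (0.5 and 5), filters and scalings, a replicate block, edgeR 4.0.16 and DESeq2 1.42.0 on the reads, and each library left out were run. On simulated counts for this comparison (11474 genes, 200 changed), limma, edgeR and DESeq2 recovered 200 each with 2, 2 and 5 false calls. In the real counts 25.1% of genes were called higher and 24.4% lower in T1 cells, and recovery at such shares was not tested. Every changed gene was simulated with a larger difference than those of Pkp2, Perp, Jup, Pkp3 and Pkp4. Recovery of differences of their size was not tested either. Positions, exon lengths and neighbours are from GENCODE M21 on GRCm38 (mm10), and promoters from RefSeq. Intervals and floors cover counting error only. A fold given as at least sets the mean of the population with reads against 3 reads per library in the other. It does not cover the spread of that mean. Figures were drawn with matplotlib 3.10.9.

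The 10 genes and the related lists were chosen with earlier results of these data known. The text names all 10 desmosome genes, the 2 highest and 2 lowest genes of each related list and every gene of related lists of 6 or fewer. It also names the nearest neighbours that passed the test, those on either side of Dsp and the 5 genes nearest to Dsp in profile. Other nearest neighbours are given by number only, except around the cadherin cluster. Trp53, Zeb1, Snai1, Snai2, Krt8, Epcam, Col1a1 and the genes around the cadherin cluster were named after their values were seen. Flg was not analysed here, and 1 gene that the rule names is not reported here.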

Additional observations from a re-analysis of the deposited data

How the results depend on the processing

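The fold changes of the 8 desmosome genes with reads and of Dsg3 were compared in 133 alternatives, under up to 15 settings each. In 133 of 133 they kept their direction and their side of the threshold. Dsg3 entered only 13 of the 15 settings, as it fell under the filter with a mean of at least 50 and without T1 replicate 3. Log2 fold changes ranged from 9.16 to 10.68 for Dsp, 9.15 to 12.30 for Dsg2, 3.59 to 4.02 for Pkp1, 2.38 to 2.62 for Pkp2, 0.55 to 0.71 for Pkp3, 0.73 to 0.91 for Jup and 1.23 to 1.48 for Perp. Dsg3 had the widest range, from 2.69 with a pseudocount of 5 to 8.32 in edgeR. Pkp4 ranged from 0.15 to 0.23, with adjusted p-values of 0.0326 to 0.169. Of 270 alternatives for counts over lists, 259 stayed within 1.5 times the reported count.

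The number of other desmosomal cadherins called higher was 2 with no filter and 0 with a mean of at least 50, and 0 to 1 with 1 library left out (0 without T1 replicate 3). Other plaque genes called higher were 0 with a mean of at least 50 and 1 to 2 with 1 library left out (2 without T1 replicate 3). Those called lower were 0 in limma without the variance trend and 0 to 2 with 1 library left out (0 without T1 replicate 2, T2 replicate 1 or T2 replicate 3, and 2 without T1 replicate 3); the call lost where none remained was Ppl. Without division by exon length the differences in plakophilin share were 4.46 points for Pkp1, 10.6 for Pkp2 and -14.7 for Pkp4. With 1 library left out the Pkp3 share difference ranged from -2.08 to 1.13. The cause of these changes was not tested beyond the filter, which removes the genes concerned.

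Whether replicate numbers pair the libraries was not settled, and the labels state no pairing. Deviations of same-numbered libraries correlated weakly, at 0.0575, 0.172 and 0.104 for replicates 1 to 3. Each T1 library correlated best with the T2 library of its number, whereas T2 replicate 1 correlated best with T1 replicate 3 (0.0719). With the replicate block, 5 transcription factors were called lower instead of 3, and the desmosome genes called higher stayed at 7.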
